A study of Homo sapiens with 6 samples.

Results

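The 9 genes described here encode ligands of the transforming growth factor beta (TGF-beta) superfamily and early read-outs of their signalling. They are the ligand genes BMP2, BMP4, TGFB1 and TGFB2, the target genes ID1, ID2 and ID3, and the inhibitory SMAD genes SMAD6 and SMAD7. They were listed by name, with earlier results of these arrays known, and the probe set of a gene was chosen by its mean signal over the 6 arrays among those annotated with that symbol alone. All 9 were measured, each with exactly 1 such probe set, so that the choice by signal never had to be made, out of 14232 genes for which a probe set is annotated with a single symbol. An array signal is used throughout on the log2 scale, so that a difference of 1 is a doubling.

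The cells were MO3.13, a human line that the submitters call an oligodendroglioma line, and total RNA of 6 samples was hybridised to Affymetrix exon arrays. The 3 Klotho-treated samples received recombinant mouse Klotho, a co-receptor protein for FGF23, at 0.4 µg/mL for 3.5 h in DMEM without serum. The 3 control samples were described only as grown in DMEM with 10% fetal bovine serum, the medium in which all cells were raised. The labels name no serum-free medium for the controls, so Klotho and the removal of serum cannot be told apart. Nothing in the labels tells whether replicate arrays represent separate cultures, and the p-values cover only the spread among these 6 samples, which may be technical.

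Ligands of this superfamily bind pairs of type I and type II receptor kinases, which phosphorylate receptor-regulated SMAD proteins. TGF-beta ligands act mainly through SMAD2 and SMAD3, and bone morphogenetic proteins (BMPs) through SMAD1, SMAD5 and SMAD9, and both branches share SMAD4. The ID genes are classical BMP targets whose products bind E proteins and so keep basic helix-loop-helix factors such as OLIG2 or MYOD1 from binding DNA. SMAD6 and SMAD7 are induced by the pathway and feed back on its receptors. In the oligodendrocyte lineage, BMP signalling is known for holding precursors back from maturation and for favouring astrocyte fate.

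RefSeq promoter windows (GRCh38.p14, 250 bases before to 50 after a gene's start) were at hand for 8 of the 9 genes, with BMP2 the exception, in 12 windows. They were searched on both strands for GTCT, the short SMAD-binding element whose other strand reads AGAC, for its palindrome GTCTAGAC, which contains both, and for the GC-rich GGCGCC. Of 35116 windows in the table, 84.0% hold GTCT, 0.202% hold GTCTAGAC and 19.2% hold GGCGCC. Among the windows of these genes, GTCTAGAC occurred only in that of SMAD6, starting 12 bases before the gene's start, and GGCGCC only in 1 of the 3 BMP4 windows. The window of TGFB1 held none of the 3 motifs. A match is a description of the sequence, and no binding was measured. The SMAD6 window is shown for its palindrome, at chr15:66701986-66702285 on the plus strand. Those of ID1, at chr20:31605039-31605338 on the plus strand, and ID3, at chr1:23559452-23559751 on the minus strand, are shown because these targets had the highest Pearson correlation over the arrays among the 9. Capitals mark each GTCT or AGAC.
SMAD6: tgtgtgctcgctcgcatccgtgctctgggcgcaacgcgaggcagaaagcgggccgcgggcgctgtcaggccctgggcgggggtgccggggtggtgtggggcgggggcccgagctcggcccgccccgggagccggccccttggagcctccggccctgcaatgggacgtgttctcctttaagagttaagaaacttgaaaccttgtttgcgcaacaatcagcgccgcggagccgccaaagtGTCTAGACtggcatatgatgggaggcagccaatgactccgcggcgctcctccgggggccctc
ID1: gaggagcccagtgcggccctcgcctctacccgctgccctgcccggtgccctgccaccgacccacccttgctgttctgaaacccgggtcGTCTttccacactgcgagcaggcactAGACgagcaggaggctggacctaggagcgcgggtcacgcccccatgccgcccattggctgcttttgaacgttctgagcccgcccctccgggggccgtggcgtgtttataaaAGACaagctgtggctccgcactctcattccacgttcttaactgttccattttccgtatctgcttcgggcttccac
ID3: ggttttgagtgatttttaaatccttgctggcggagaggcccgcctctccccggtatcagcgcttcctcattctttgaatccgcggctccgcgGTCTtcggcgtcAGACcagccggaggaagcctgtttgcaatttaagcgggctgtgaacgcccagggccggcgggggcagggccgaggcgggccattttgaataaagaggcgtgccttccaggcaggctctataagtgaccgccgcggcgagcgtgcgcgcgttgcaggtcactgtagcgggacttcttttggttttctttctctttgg

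Each array gave 22011 values, with array medians between 6.36 and 6.47, and pairwise correlations of the arrays ran from r = 0.985 to 0.991 over the probe sets. The signals of 4 of the 9 genes (BMP2, BMP4, SMAD6 and SMAD7) lay below the median probe set (6.40), and 0 of 9 lay below the lower quartile (4.70). Of all 14232 genes, 46.6% lay below that median. Of 10 measured oligodendrocyte markers 9 lay below it, among them MBP and MOG, and CNP did not. Below it lay 6 of 7 measured astrocyte markers, 5 of 6 neuron, 7 of 7 microglia and blood, and 5 of 5 endothelium markers. Of 9 measured skeletal muscle markers 2 lay below it, MYF5 and PAX7, whereas MYOD1, MYOG and ACTC1 were above it. Signals of different probe sets are not on a common scale of transcript amount and no detection calls were used, so these counts neither rank genes nor show whether a marker is expressed, and the labelled lineage cannot be settled from them.

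The comparison of Klotho-treated with control cells asked whether the genes of this pathway differ after 3.5 h. The ligand genes BMP2 and BMP4 showed the widest differences, in opposite directions, the 3 ID genes and SMAD6 were lower by 0.10 to 0.17, and TGFB1, TGFB2 and SMAD7 by 0.10 or less. None of the 9 passed an adjusted p under 0.05 in limma, a linear model fitted to all probe sets, and the adjusted p of each was 0.998. Nor did any of the 22011 probe sets (0%), with a smallest adjusted p of 0.343. Unadjusted p-values under 0.05 were found for 2 of the 9, BMP2 and BMP4, against 2.07% of all genes and 3.19% of all probe sets. The BMP4 difference was among the results known when the genes were listed, so that this share is not independent evidence. Without control array 1, control array 2, Klotho array 1 or Klotho array 2, each left out alone, 0 of the 9 had an unadjusted p under 0.05. In a bulk extract, fewer cells of a type and less RNA per cell cannot be told apart.

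BMP4, a ligand of the BMP branch, measured 5.22, 5.18 and 5.37 on the Klotho arrays, against 5.74, 5.65 and 5.33 on the control arrays. The groups overlapped, since control array 3 read below Klotho array 3. The means were 5.26 ± 0.10 in treated and 5.58 ± 0.22 in control cells (SD, n = 3 each), a difference of -0.32 with a 95% interval of -0.63 to -0.01, or 0.801-fold (limma, unadjusted p = 0.0439, adjusted p = 0.998). The difference was -0.44 without control array 3 and -0.24 without control array 1.

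BMP2, the closest relative of BMP4 and a ligand of the same receptors, measured 5.50, 5.54 and 5.40 on the Klotho arrays, against 5.07, 5.26 and 5.35 on the control arrays. Every treated value lay above every control value, by 0.05 at the nearest pair, and the groups were also apart under the 3 other scalings of the arrays (median centring, quantile normalization and cyclic loess). The means were 5.48 ± 0.07 in treated and 5.23 ± 0.14 in control cells (SD, n = 3 each), a difference of 0.25 with a 95% interval of 0.01 to 0.49, or 1.19-fold (limma, unadjusted p = 0.0416, adjusted p = 0.998). Groups that do not overlap were found for 2 of the 9 genes, BMP2 and SMAD6, against 7.89% of all genes, and in the direction of BMP2 for 2.59%. The BMP2 difference was 0.18 without control array 1 and 0.32 without control array 3.

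BMP2 and BMP4 mirrored each other from array to array. The array highest in BMP4 and lowest in BMP2 was control array 1, and the array lowest in BMP4 and highest in BMP2 was Klotho array 2. Over the 6 arrays Pearson's r was -0.96 (exact permutation p = 0.00417, adjusted over the 36 pairs of the 9 genes p = 0.150) and Spearman's rho was -0.94 (exact permutation p = 0.0167, adjusted p = 0.600). Pearson's r was -0.93 without the 2 arrays farthest from the BMP4 median, and -0.90 for deviations from each group's mean. The permutations exchanged arrays between the groups, so a difference between the groups enters r and its p. The deviations within a group of 3 are tied to each other, and no p was computed for them. Of the 14231 other genes, 13 correlated with BMP4 at least as negatively, BMP2 included. The log2 difference of BMP2 minus BMP4 within an array, set to 0 at the control mean, was 0.63, 0.71 and 0.38 on the Klotho arrays, against -0.32, -0.05 and 0.37 on the control arrays. These values do not move with a constant shift of an array, and the pair was singled out after its values were seen. Klotho array 3 and control array 3 differed by only 0.01, so the groups stood apart by a margin far below their SDs of 0.17 and 0.35.

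**Figure D1:**
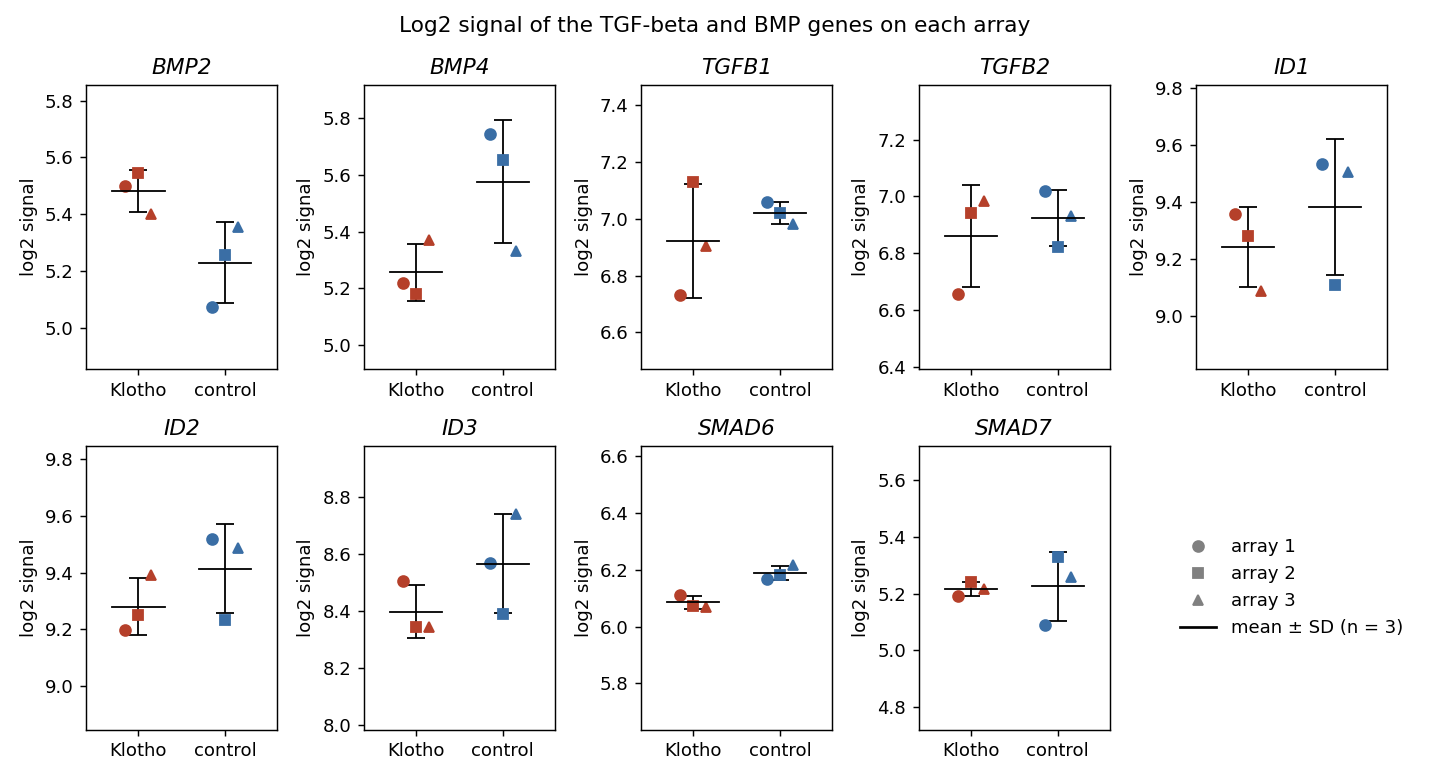
Log2 signal (vertical axis, each panel spanning 1 unit) of the 9 genes on the 3 Klotho arrays (left, red) and the 3 control arrays (right, blue); symbols mark the array number, lines and bars the mean ± SD. In BMP2 and SMAD6 the groups as deposited do not overlap, in BMP4 the values of array 3 meet (5.37 in Klotho and 5.33 in control), and SMAD7 means are 5.22 in both.

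TGFB1 encodes the main circulating and platelet form of TGF-beta. It measured 6.73, 7.13 and 6.90 on the Klotho arrays, against 7.06, 7.02 and 6.98 on the control arrays. The treated values enclosed the control values, with SDs of 0.20 in treated and 0.04 in control cells (n = 3 each). The difference was -0.10 with a 95% interval of -0.37 to 0.18 (limma, adjusted p = 0.998). It was -0.20 without Klotho array 2 and within 0.01 of 0 without Klotho array 1.

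TGFB2 encodes a second TGF-beta, which depends on the co-receptor TGFBR3 for efficient binding. It measured 6.66, 6.94 and 6.98 on the Klotho arrays, against 7.02, 6.82 and 6.93 on the control arrays. The groups overlapped and Klotho array 1 was the lowest of the 6, as it was for TGFB1. The difference was -0.06 with a 95% interval of -0.34 to 0.21 (limma, adjusted p = 0.998), and 0.04 without Klotho array 1.

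The ID genes were lower on average in treated cells, each by less than the SD of its 3 control arrays. ID1 measured 9.36, 9.28 and 9.09 on the Klotho arrays, against 9.53, 9.11 and 9.51 on the control arrays, a difference of -0.14 (95% interval -0.49 to 0.20). ID2 measured 9.20, 9.25 and 9.39 on the Klotho arrays, against 9.52, 9.23 and 9.49 on the control arrays, a difference of -0.13 (95% interval -0.39 to 0.13). Another probe set pairs ID2 with its pseudogene ID2B and was not used.

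ID3 measured 8.51, 8.34 and 8.34 on the Klotho arrays, against 8.57, 8.39 and 8.74 on the control arrays, a difference of -0.17 (95% interval -0.44 to 0.10). In all 3 genes the groups overlapped, and control array 2 was the lowest control. With 1 array left out at a time, the difference ranged from -0.28 (without control array 2) to -0.06 (without Klotho array 3) for ID1, from -0.22 (without control array 2) to -0.08 (without control array 1) for ID2, and from -0.26 (without control array 2) to -0.08 (without control array 3) for ID3. ID4, the remaining member of the family, averaged 5.80 ± 0.07 in treated and 5.71 ± 0.18 in control cells (SD, n = 3 each), a difference of 0.09 (95% interval -0.18 to 0.36).

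By Pearson's r, the array profiles of ID1 and ID3 were the most alike of the 36 pairs, with r = 0.84 over 6 arrays (exact permutation p = 0.0444, adjusted p = 0.638) and rho = 0.77 (exact permutation p = 0.103, adjusted p = 0.903). Pearson's r was 0.84 without the 2 arrays farthest from the ID1 median, and 0.81 for deviations from each group's mean. Here too the permutations exchanged arrays between the groups. By Spearman's rho TGFB2 and ID2 were more alike (0.83), and ID3 and SMAD6 equally so (0.77). Of 14231 other genes, 512 correlated with ID1 at least as positively, ID3 included. ID2 correlated with ID1 at 0.56 and with ID3 at 0.60, and BMP4 with the ID genes at 0.08 to 0.42. For deviations from each group's mean, ID2 correlated with ID1 at 0.44 and with ID3 at 0.42. BMP4 then correlated with ID1 at -0.39, with ID2 at 0.05 and with ID3 at -0.65. Without the 2 arrays farthest from the ID2 median, ID2 and ID3 correlated at -0.67.

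**Figure D2:**
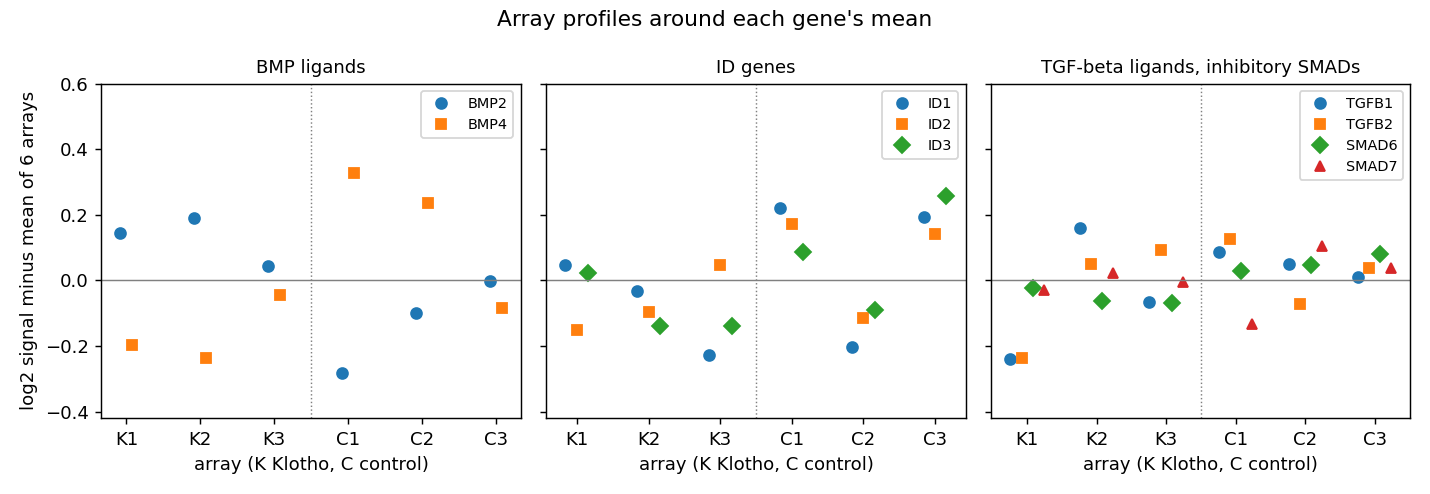
Log2 signal of each gene minus its mean over the 6 arrays (vertical axis), for Klotho arrays K1 to K3 and control arrays C1 to C3. BMP2 and BMP4 run opposite to each other (r = -0.96), and ID1 and ID3 alike (r = 0.84). Control array 2 is the lowest control for each ID gene, though a Klotho array is lower still, and TGFB1 and TGFB2 are lowest on Klotho array 1.

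SMAD6, which chiefly restrains the BMP branch, was the least variable of the 9. It measured 6.11, 6.07 and 6.07 on the Klotho arrays, against 6.17, 6.18 and 6.22 on the control arrays. As deposited, every treated value lay below every control value, by 0.05 at the nearest pair, as in 5.3% of all genes in this direction. The groups overlapped under each of the 3 other scalings, where the difference was -0.05 with median centring and -0.07 with quantile normalization or cyclic loess. The means were 6.09 ± 0.02 in treated and 6.19 ± 0.03 in control cells (SD, n = 3 each). The difference was -0.10 with a 95% interval of -0.27 to 0.06 (limma, unadjusted p = 0.184, adjusted p = 0.998). The interval is wider than these SDs alone would give because limma draws each gene's SD towards a common value, 0.14 here. An exact permutation test of 3 arrays against 3 cannot give a 2-sided p below 0.1.

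SMAD7, which restrains both branches, measured 5.19, 5.24 and 5.22 on the Klotho arrays, against 5.09, 5.33 and 5.26 on the control arrays. The treated values lay inside the range of the controls. The difference was -0.01 with a 95% interval of -0.22 to 0.20 (limma, adjusted p = 0.998), so that a change larger than 1.5-fold in either direction lay outside the interval. The same held for all of the 9 genes except BMP4, whose interval reached 0.648-fold.

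As deposited, 8 of the 9 genes were lower in treated cells, with a median difference of -0.10, and 62.6% of all genes were lower, with a median of -0.03. With each array centred on its median, 7 of the 9 were lower (median -0.05) against 42.7% of all genes, with quantile normalization 7 (median -0.07) against 46.8%, and with cyclic loess 8 (median -0.07) against 50.3%. SMAD7 was the gene that changed sign under the first 2 of these scalings. Over the 3 scalings the differences lay between -0.11 and -0.09 for ID1, -0.10 and -0.08 for ID2, -0.12 and -0.11 for ID3, and -0.05 and -0.04 for TGFB1, and TGFB2 was within 0.02 of 0. BMP4 lay between -0.31 and -0.27 under the 3 scalings and BMP2 between 0.26 and 0.30. The unadjusted p of BMP4 was 0.0673 with median centring and 0.0529 with cyclic loess.

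**Figure D3:**
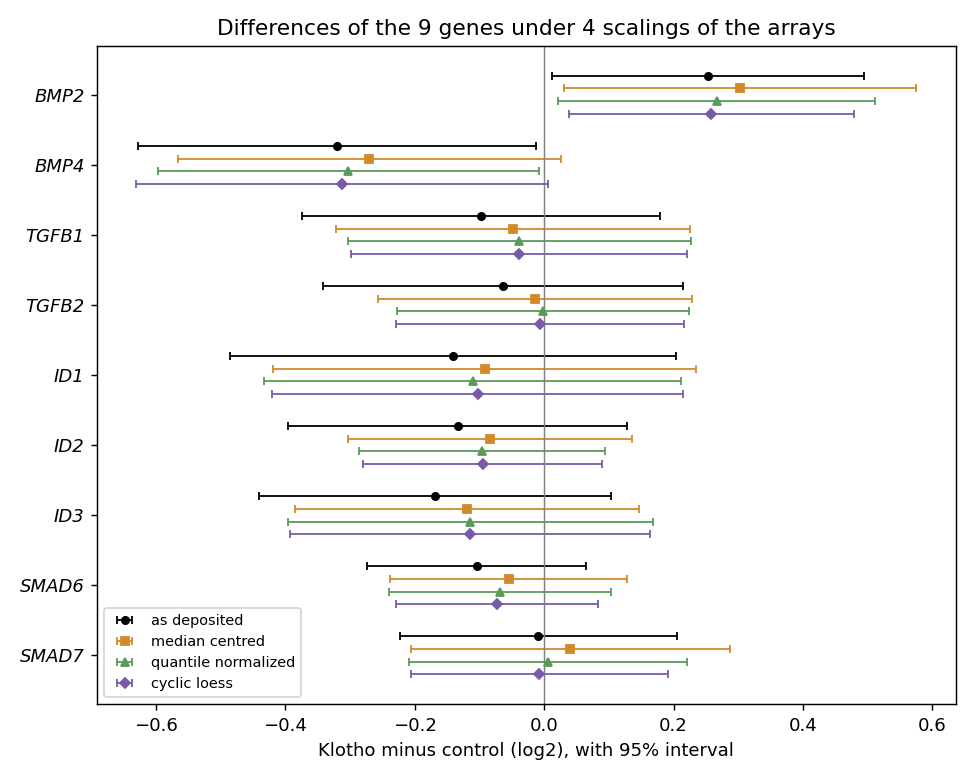
Klotho minus control difference (log2, horizontal axis) of each gene with its 95% interval from limma, for the values as deposited and 3 other scalings of the arrays. BMP2 is to the right of 0 with an interval that leaves out 0 under all 4 scalings shown, BMP4 is to the left with an interval that crosses 0 under median centring and cyclic loess, and the intervals of the other 7 genes include 0 throughout.

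The rest of the pathway was read from 10 lists by role, 118 genes of which 103 were measured. Of these 103, 47 were higher and 56 lower in treated cells, with a median difference of -0.01, and 0 passed the adjusted threshold in limma. The split depends on the scaling, since median centring gave 69 higher and 34 lower, quantile normalization 70 higher and 33 lower, and cyclic loess 66 higher and 37 lower, so that the counts by list given here hold for the values as deposited. An unadjusted p under 0.05 was found for 2, against 2.07% of all genes, and the groups did not overlap for 6, against 7.89%.

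Among the other ligands, BMP3, an atypical BMP that opposes BMP signalling in bone, had the smallest p. It measured 4.89, 4.70 and 4.92 on the Klotho arrays, against 4.17, 4.21 and 4.55 on the control arrays. Its groups did not overlap, with a difference of 0.53 (95% interval 0.22 to 0.84; limma, unadjusted p = 0.00557, adjusted p = 0.998), on a probe set dimmer than the lower quartile. Of the 10 measured BMP and GDF ligands 6 were higher and 4 lower, and BMP6 differed by -0.14. Of the 8 TGF-beta and activin ligands 3 were higher and 5 lower. INHA, the inhibin alpha subunit, differed by -0.28, INHBA, an activin subunit, by -0.10, and TGFB3, the remaining TGF-beta, by -0.06. Of 10 genes of latency and activation 6 were higher and 4 lower, with THBS1, an activator of latent TGF-beta, at -0.17 and PCSK6, a proprotein convertase, at 0.08.

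Of 13 measured receptors and co-receptors 2 were higher and 11 lower, with a median of -0.05. TGFBR3, the co-receptor betaglycan, measured 6.60, 6.67 and 6.87 on the Klotho arrays, against 7.03, 6.90 and 6.90 on the control arrays, a difference of -0.23 (95% interval -0.47 to 0.01). ENG, the co-receptor endoglin, measured 8.44, 8.60 and 8.39 on the Klotho arrays, against 8.66, 8.75 and 8.62 on the control arrays, a difference of -0.20 (95% interval -0.42 to 0.01). In both the treated values lay below the controls, as they did for ACVR2B, a type II receptor for activins that was picked out after its values were seen (-0.12). These are 3 of the 13 as deposited, against 7.89% of all genes, or 5.3% in this direction. Whether the receptor groups stay apart under the other scalings was not tested.

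Among the signalling receptors, ACVR1B, a type I receptor for activins that was also picked out after its values were seen, differed by -0.21 (95% interval -0.47 to 0.04). TGFBR1 differed by -0.06 (95% interval -0.32 to 0.21), TGFBR2 by -0.01 (95% interval -0.20 to 0.18) and BMPR2 by -0.04 (95% interval -0.35 to 0.27). BMPR1A had no probe set of its own and was not measured here. All 13 receptor intervals lay within a 1.5-fold change. Under the 3 other scalings 7 receptors were higher and 6 lower, with medians within 0.01 of 0.

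Of 13 measured extracellular and membrane inhibitors 11 were higher and 2 lower, with a median of 0.05, and 12 were higher under each of the 3 other scalings (medians 0.06 to 0.10). CHRDL1, a secreted BMP antagonist, measured 3.70, 3.54 and 3.37 on the Klotho arrays, against 3.25, 3.29 and 3.22 on the control arrays. The groups did not overlap, and the difference was 0.28 (95% interval 0.03 to 0.53; limma, unadjusted p = 0.0318, adjusted p = 0.998). GREM1, another BMP antagonist, differed by 0.40 with an interval of -0.30 to 1.11. The probe sets of both, and 5 of the 13 in all, were below the lower quartile. Below the median probe set lay 10 of the 13, against 46.6% of all genes. Whether the direction of these genes goes with their low signal was not tested.

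Inside the cell, 5 of 6 signalling SMADs were lower (median -0.04), with SMAD4 at -0.15 and SMAD3 at -0.06, and 8 of 9 intracellular inhibitors were lower (median -0.07), with SKI, a SMAD corepressor, at -0.08 and STRAP, which binds TGF-beta receptors, at -0.07. Under the 3 other scalings only 1 or 2 of the 6 SMADs and 4 or 5 of the 9 inhibitors were lower. Of 13 measured TGF-beta target genes 5 were higher and 8 lower, against 7 and 6 under the 3 other scalings. COL1A2, a type I collagen chain, differed by -0.26 (95% interval -0.62 to 0.09) and JUNB, an AP-1 factor, by -0.17. Of 13 other BMP targets 8 were higher and 5 lower, with the homeobox gene DLX2 at 0.19, whose groups did not overlap, and SP7, a bone transcription factor, at 0.23.

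The bHLH partners of the ID proteins showed 4 higher and 4 lower among 8 measured genes (6 or 7 higher under the 3 other scalings), and all 8 intervals lay within a 1.5-fold change. OLIG2, the oligodendrocyte lineage factor, differed by 0.11 (95% interval -0.12 to 0.35) and MYOD1, the myogenic factor, by -0.09 (95% interval -0.30 to 0.13). Of 9 measured skeletal muscle markers 6 were lower in treated cells and 3 higher as deposited, where 62.6% of all genes were lower. Under the 3 other scalings 5 of the 9 were lower, against 42.7% to 50.3% of all genes. As deposited, the list means were 8.51 to 8.53 on the Klotho arrays and 8.55 to 8.62 on the control arrays. DES, the muscle intermediate filament desmin, was picked out after its values were seen. It differed by -0.27 with groups that did not overlap (limma, unadjusted p = 0.019, adjusted p = 0.998). Groups did not overlap for 2 of the 9 markers as deposited, against 7.89% of all genes. The part of these markers in the ID and SMAD6 values was not tested.

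**Figure D4:**
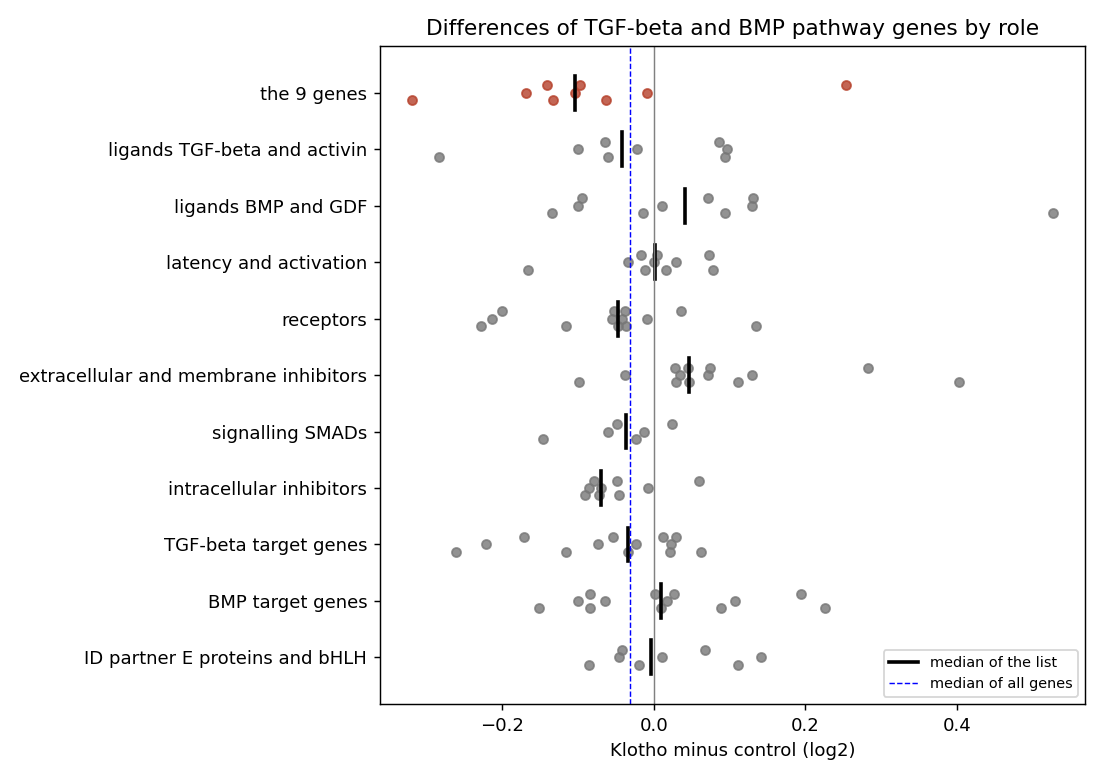
Klotho minus control difference (log2, horizontal axis) of the 9 genes (top, red) and of 103 further pathway genes in 10 lists by role (grey points, 1 per gene). Black bars mark list medians (from -0.10 for the 9 genes to 0.05 for extracellular and membrane inhibitors), and the dashed line the median of all genes (-0.03); BMP3 is farthest right, at 0.53.

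BMP4 also had the widest range of the 9 genes over the 6 arrays (0.56). Of all measured genes, those with the array profile most like that of BMP4 were SAT1, a polyamine acetyltransferase (r = 0.99), MARCHF5, a mitochondrial ubiquitin ligase (r = 0.99), and SRRM1, a splicing factor (r = 0.99), each over 6 arrays. With so few arrays and so many genes, profiles this close are found for each of the 9 genes, with a best r between 0.98 and 1.00.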

How the data were processed

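The authors deposited 1 table of log2 values for 6 arrays of MO3.13 cells, made with RMA per the submitters' processing notes; which software was run, with what annotation and filters, is not given in the sources used here. Probe sets were named from the platform's annotation table: 14432 have 1 gene symbol, 2408 several and 5171 none. A gene was read from the probe set with its symbol alone and the highest mean, giving 14232 genes. Groups were taken from the treatment labels.

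All 22011 probe sets entered a 2-sided test by lmFit and eBayes (limma 3.58.1, R 4.3.3). P-values were adjusted by Benjamini-Hochberg over all of them, 0.05 was the threshold, and 95% intervals use limma's moderated variance. Tested on simulated data with independent errors, the fit recovered most of the larger planted changes and missed most of the smallest, which were 1.5-fold. The member genes all differed by less than that, so the simulation does not tell how often differences of their size would be found. Precision is limited by the number of arrays.

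The members and lists were chosen with earlier results of these data known. Named genes are the 9 members, the 2 genes of smallest p in each pathway list, fixed receptors and family members (ID4, TGFB3, BMPR1A, BMPR2, TGFBR1, TGFBR2), and the 3 genes most like BMP4, which is also the member of widest range. Outside this rule, ACVR1B, ACVR2B, DES and the marker genes given as examples (CNP, MBP, MOG, MYOG, ACTC1, MYF5, PAX7) were chosen after their values were seen. Marker lists for astrocytes, neurons, microglia and blood, and endothelium were also read. Of their members 0 passed the adjusted threshold, against 0% of all genes, and 0 had groups that did not overlap, against 7.89%. Alternatives were other scalings, filters, variance models, array weights, a replicate block, the mean of a gene's probe sets and leaving out each array. No scan dates were at hand to test as batches.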

Additional observations from a re-analysis of the deposited data

How the results depend on the processing

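Of the 22011 probe sets and of the 9 genes, 0 passed the adjusted threshold in limma as deposited and under all 16 alternatives; at an unadjusted p under 0.05 the probe sets numbered 292 higher and 411 lower in Klotho-treated cells as deposited. The split was 510 and 253 with median centring, 371 and 322 with quantile normalization, 338 and 374 with cyclic loess, 711 and 933 with array quality weights, and 442 and 758 without Klotho array 3. The lowest adjusted p of any of the 9 genes under any alternative was 0.655, for BMP2 with array weights. Replicate numbers gave no sign of pairing: same-numbered arrays deviated from their group means with correlations of -0.18, 0.06 and -0.14. Of the Klotho arrays only array 2 correlated best with its own number among the controls. The deviations within a group of 3 are tied to each other, so these correlations cannot exclude pairing. With the replicate block 0 of 22011 probe sets passed, and the unadjusted p was 0.0906 for BMP4 and 0.0879 for BMP2. The overlap of groups, for the 9 genes and as a share of all genes, and the counts of lists were recomputed under the 3 scalings after seeing the data. BMP2, BMP4, ID1, ID2, ID3 and SMAD6 kept their direction under all 16 alternatives. The filters, variance models, replicate block and mean of a gene's probe sets leave the difference of these genes as it is. Only the scalings, the array weights and the left-out arrays could therefore change a direction. TGFB1 turned to 0.02 with array weights, TGFB2 to 0.04 without Klotho array 1, and SMAD7 was above 0 in 5. Without 1 array, BMP4 ranged from -0.44 to -0.24 and BMP2 from 0.18 to 0.32. No detection calls or background signals were at hand, so a bound on the signal of a dim probe set need not bound its transcript.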
